A study of Mus musculus with 4 samples.

Results

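The 10 genes described here are the class I major histocompatibility complex (MHC) genes H2-K1, H2-D1, H2-Q4, H2-Q5, H2-Q6, H2-Q7, H2-T22, H2-T23 and H2-M3, and B2m, which encodes the light chain that the heavy chains pair with. They are 10 of the 50600 genes counted, and all 10 had reads in all libraries. They were chosen by name, with the measured levels of these libraries already known, so their levels and their spread are given as a description of these libraries. RNA was sequenced in 4 libraries of mouse primary cells from the C57BL/6NJ strain that carry 1 label, regulatory T cell, a CD4 T cell kind that restrains immune responses and is defined by the factor Foxp3. The libraries are biological replicates 1 to 4 from 4 biosamples, and the labels list 1 donor record for them and leave sex and age unrecorded. A differentiation protocol for CD4 T cells is cited, and the column names inside the files carry the word activated with a mark of 0 h. No treatment or genotype beyond the strain is given, and no other group was analysed here, so no control group stands beside these values. The p-values below speak of differences among these 4 samples alone, part of which may be technical.

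Class I molecules hold peptides from inside the cell at its surface and show them to CD8 T cells and natural killer cells. H2-K and H2-D are the classical molecules, found on nearly all nucleated cells, and they cannot stay folded at the surface without beta-2 microglobulin, the product of B2m. The Q, T and M genes lie further along the same region and encode the non-classical molecules, which are less variable between strains and present narrower sets of ligands. Interferons, NF-kappaB and the transactivator Nlrc5 act on a shared promoter module made of an NF-kappaB site, an interferon response element and X and Y boxes.

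The genes sit on 2 chromosomes of the build mm10. H2-K1 lies at chr17:33996017-34000333 on the minus strand and H2-D1 at chr17:35262730-35267499 on the plus strand. The 4 Q genes follow within a short stretch on the plus strand, H2-Q4 at chr17:35379617-35385290, H2-Q5 at chr17:35394126-35397800, H2-Q6 at chr17:35424850-35430055 and H2-Q7 at chr17:35439155-35443773. H2-T23 lies at chr17:36029773-36032855 and H2-T22 at chr17:36037128-36042747, both on the minus strand, and H2-M3 at chr17:37270220-37274484 on the plus strand. B2m is on another chromosome, at chr2:122147686-122153083 on the plus strand. GENCODE M21 annotates 9 of the 10 as protein-coding and H2-Q5 as a polymorphic pseudogene, a gene that is intact in some strains only. No exon base of any of the 10 genes overlapped an exon of another gene on the same strand.

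Promoter stretches are printed first, since the shared module stands in them letter by letter. RefSeq windows from 250 bases before to 50 after each start (build GRCm38.p6) matched 9 of the 10 genes, and H2-Q5 had none. Each stretch below begins at the first NF-kappaB or interferon motif match, reads 5′ to 3′ toward the gene and ends before the RefSeq start site. For H2-D1 that site lies 364 bases inside the gene interval given above, so its stretch falls within that interval. For H2-M3 it lies 14 bases inside, and the stretch runs past the first base of the interval. Capitals mark the NF-kappaB motif GGGNNTTCC, the interferon motifs TTTCACTT and TTTCNNTTT on either strand, and TGACG, letters found in elements that CREB and ATF factors bind, wherever they stand in the stretch.
H2-K1 (chr17:34000349-34000458, minus strand): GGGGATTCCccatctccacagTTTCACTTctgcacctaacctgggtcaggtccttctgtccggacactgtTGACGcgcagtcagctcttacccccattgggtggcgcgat
H2-D1 (chr17:35262923-35263032, plus strand): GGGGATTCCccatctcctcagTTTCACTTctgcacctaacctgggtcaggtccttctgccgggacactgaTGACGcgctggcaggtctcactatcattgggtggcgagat
H2-Q4 (chr17:35379444-35379553, plus strand): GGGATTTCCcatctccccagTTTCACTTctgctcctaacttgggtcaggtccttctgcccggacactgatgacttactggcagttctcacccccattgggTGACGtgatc
H2-Q6 (chr17:35424677-35424786, plus strand): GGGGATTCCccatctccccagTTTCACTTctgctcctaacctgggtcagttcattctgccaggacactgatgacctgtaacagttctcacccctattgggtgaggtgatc
H2-Q7 (chr17:35439022-35439131, plus strand): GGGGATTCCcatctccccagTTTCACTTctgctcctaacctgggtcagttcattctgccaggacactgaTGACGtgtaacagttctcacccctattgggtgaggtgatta
H2-M3 (chr17:37270133-37270233, plus strand): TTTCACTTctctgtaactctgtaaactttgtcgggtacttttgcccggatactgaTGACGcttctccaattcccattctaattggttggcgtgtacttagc
B2m (chr2:122147549-122147658, plus strand): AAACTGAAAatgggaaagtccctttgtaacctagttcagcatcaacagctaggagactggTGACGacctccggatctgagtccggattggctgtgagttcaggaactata

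The stretches of H2-K1, H2-D1, H2-Q4, H2-Q6 and H2-Q7 open alike, with the NF-kappaB motif followed closely by TTTCACTT, and H2-M3 holds TTTCACTT and TGACG without the NF-kappaB motif. Searched on both strands of the 300-base windows, GGGNNTTCC was found in 5 of 9 genes (H2-K1, H2-D1, H2-Q4, H2-Q6 and H2-Q7), against 5.82% of 32851 RefSeq promoters. TTTCACTT was found in 7 of 9, all but B2m and H2-T23, against 1.60% of promoters, and these letters were chosen after the promoters had been read. The wider motif TTTCNNTTT was found in 3 of 9 (B2m, H2-T22 and H2-T23), against 10.55% of promoters, and in H2-T22 it overlaps TTTCACTT. TGACG stood in 7 of 9, all but H2-Q6 and H2-T23, against 20.8% of promoters. In H2-K1, H2-D1, H2-Q7, H2-M3 and B2m the match printed lies before the Y box letters nearest to it, as in the textbook module, while in H2-Q4 it lies after them, at -73 to -69 from the start, with the Y box letters at -79 to -75. The Y box letters CCAAT were found in 9 of 9, against 37.4% of promoters. The interferon-gamma motif TTCNNNGAA was found in H2-M3 alone, against 8.30% of promoters, and in 0 of 9 genes within the 200 bases before the start. These matches describe letters in a window, and binding was not measured.

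The coding sequences are alike too, which limits what reads can tell apart. Coding exon 3 encodes the alpha-2 domain, which forms part of the peptide groove and is where class I molecules differ most. Its first 90 bases, from GENCODE M21 transcripts, are shown for 7 heavy chain genes, with capitals at bases unlike those of H2-K1.
H2-K1 (chr17:33999457-33999546, minus strand): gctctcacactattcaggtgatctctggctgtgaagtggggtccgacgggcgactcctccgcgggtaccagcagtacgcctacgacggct
H2-D1 (chr17:35263839-35263928, plus strand): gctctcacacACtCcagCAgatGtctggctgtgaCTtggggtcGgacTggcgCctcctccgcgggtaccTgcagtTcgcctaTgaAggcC
H2-Q4 (chr17:35380361-35380450, plus strand): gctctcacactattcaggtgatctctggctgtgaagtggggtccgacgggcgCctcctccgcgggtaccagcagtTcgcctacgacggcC
H2-Q6 (chr17:35425571-35425660, plus strand): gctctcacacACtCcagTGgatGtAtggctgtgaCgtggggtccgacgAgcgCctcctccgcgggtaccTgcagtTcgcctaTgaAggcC
H2-Q7 (chr17:35439909-35439998, plus strand): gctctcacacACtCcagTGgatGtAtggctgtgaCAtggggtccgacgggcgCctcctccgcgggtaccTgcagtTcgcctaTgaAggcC
H2-T23 (chr17:36031824-36031913, minus strand): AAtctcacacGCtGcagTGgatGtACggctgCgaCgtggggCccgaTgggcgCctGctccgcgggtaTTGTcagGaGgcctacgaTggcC
H2-M3 (chr17:37270998-37271087, plus strand): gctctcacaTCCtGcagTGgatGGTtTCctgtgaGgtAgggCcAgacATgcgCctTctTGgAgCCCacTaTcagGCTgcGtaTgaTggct

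Within these 90 bases, H2-Q6 and H2-Q7 differed from each other at 2 positions, and H2-Q4 differed from H2-K1 at 3. H2-D1 differed from H2-K1 at 16, H2-T23 at 24 and H2-M3 at 33. Over the whole exon of 276 bases, H2-Q6 and H2-Q7 were 94.9% identical and H2-K1 and H2-D1 88.0%. H2-M3 was the most distant, with 65.6% to 68.5% identity to the 6 others shown. H2-Q5 and H2-T22 were not aligned there, as their exon 3 has 269 and 237 bases in the annotation.

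Fragments that align to several genes were left out of the deposited counts, so shared sequence removes reads. Of all 50-base words in each gene's M21 transcripts, none of B2m's and 0.576% of H2-M3's occurred in a transcript of another gene. The share was 9.63% for H2-K1, 12.8% for H2-D1 and 14.5% for H2-T23. It was higher for H2-Q7 (26.5%), H2-Q6 (34.97%), H2-Q4 (36.4%), H2-Q5 (36.5%) and H2-T22 (53.5%). H2-Q5 had 25.5% of its words in H2-Q7, and H2-Q6 had 13.9% in H2-Q7 and 12.3% in H2-Q4. H2-T22 shared 31.3% of its words with H2-T10, a close relative that like H2-T22 is a ligand of some gamma delta T cell receptors. Counts of the Q genes and of H2-T22 are therefore uncertain as levels. The length of the reads is not stated in these sources, and shares at 36 bases were higher and at 100 bases lower for each gene but B2m, which had none at any length. The symbols H2-Q8 and H2-Q9 matched no gene and were not analysed here.

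Library totals ran from 23000465 to 62090744 counts, a 2.70-fold range, with replicates 1 and 3 shallow and replicates 2 and 4 deep. The lowest count of any of the 10 genes in a library was 739. T cell markers were high, with Trac at 3435 ± 137 TPM, Cd4 at 1067 ± 31.4 TPM and Cd3e at 485 ± 20.1 TPM (SD, n = 4), where TPM is the count divided by exon length and scaled to the same sum in each library, so that levels of genes can be compared. All 6 markers of the label were detected, 5 of them at means under 10 TPM. Foxp3 had 8.28 ± 0.867 TPM, Ctla4 7.77 ± 0.959 TPM, Il2ra 5.52 ± 2.76 TPM, Ikzf2 1.34 ± 0.194 TPM, Ikzf4 9.22 ± 1.18 TPM and Tnfrsf18 107 ± 3.80 TPM (SD, n = 4). Their median was 8.02 TPM, against 794 TPM for the 5 T cell markers, and the label is used as given. B cell markers were present at a summed 10.9 to 36.6 TPM, macrophage and monocyte markers at 14.0 to 16.7 TPM, natural killer cell markers at 4.54 to 6.96 TPM and CD8 markers at 37.2 to 42.3 TPM. A single gene carried most of each of the last 3 sums, namely Cd68 (mean 11.7 TPM), Eomes (4.00 TPM) and Cd8b1 (40.0 TPM). Each other marker of those lists had a mean of at most 1.78 TPM, and Cd8a had 0.794 TPM. Granulocyte, dendritic, red and stromal cell markers summed to under 4 TPM in each library. In bulk RNA, fewer cells of a type and less RNA per cell cannot be told apart.

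The classical heavy chains and the light chain were among the most abundant transcripts in these cells. H2-K1 had 5980, 5554, 4640 and 5017 TPM in replicates 1 to 4, a mean of 5298 ± 589 TPM (SD, n = 4), which placed it 11th of all genes. B2m had 5045, 5764, 4766 and 4885 TPM, a mean of 5115 ± 448 TPM and rank 12. H2-D1 had 3840, 3552, 3117 and 3322 TPM, a mean of 3458 ± 311 TPM and rank 20. The highest library exceeded the lowest by 1.29-fold for H2-K1, 1.23-fold for H2-D1 and 1.21-fold for B2m. Replicate 3 was lowest for all 3 genes.

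**Figure D1:**
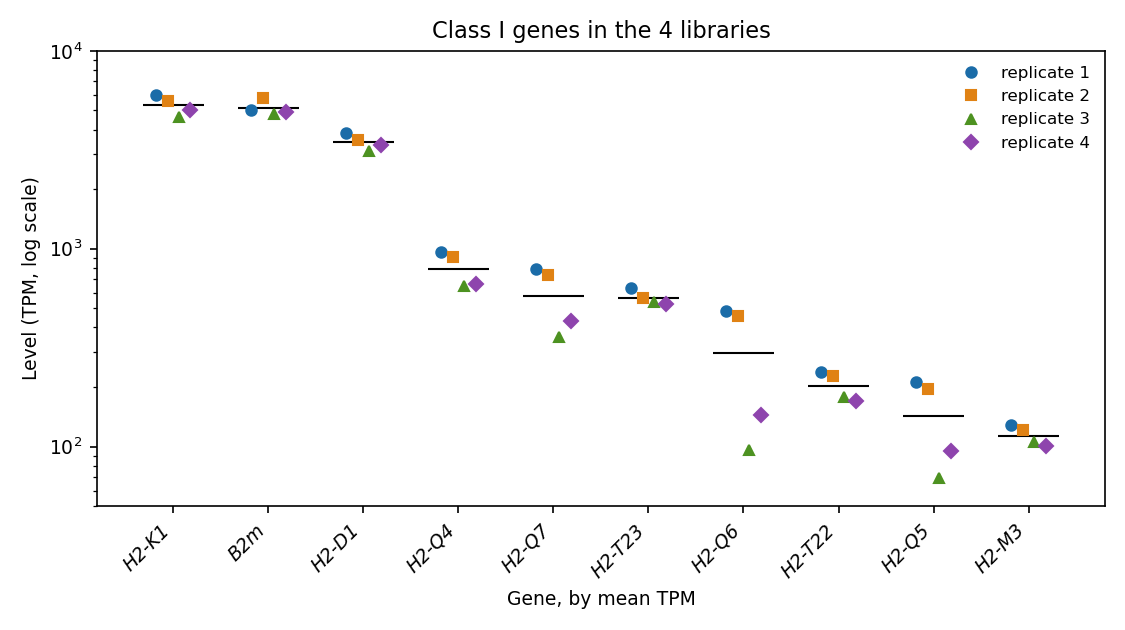
Level of each of the 10 genes (y axis, TPM on a log scale) in replicates 1 to 4 (points), with genes along the x axis by mean and a line at the mean of the 4 libraries. H2-K1, B2m and H2-D1 stand at 3117 TPM or more in each library, and H2-Q7, H2-Q6 and H2-Q5 separate replicates 1 and 2 from replicates 3 and 4.

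H2-Q4 and H2-Q7 came next by mean, and H2-Q6, H2-Q5 and H2-Q7 had the widest fold ranges of the 10 genes. H2-Q4, which encodes the non-classical molecule Qb-1, had 962, 907, 646 and 660 TPM in replicates 1 to 4 (mean 794 ± 164 TPM). H2-Q7, which encodes Qa-2, a molecule tethered to the membrane by a lipid anchor, had 792, 735, 357 and 430 TPM (mean 579 ± 217 TPM). H2-Q6, a close relative of H2-Q7 in the Qa-2 family, had 486, 456, 96.6 and 145 TPM (mean 296 ± 204 TPM). For these 3 genes the 2 highest libraries were replicates 1 and 2, and no value of replicates 3 and 4 reached them. H2-Q5 followed the same order with 211, 196, 69.6 and 95.3 TPM (mean 143 ± 71.1 TPM). The highest library exceeded the lowest by 5.03-fold for H2-Q6, 3.04-fold for H2-Q5, 2.22-fold for H2-Q7 and 1.49-fold for H2-Q4. As for the precision of a single library, H2-Q6 had 1345 counts in replicate 3, which gives an exact Poisson 95% interval of 91.6 to 102 TPM, and 5426 counts in replicate 4, which gives 141 to 149 TPM. Such intervals cover counting error and not the spread between samples.

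The T and M genes were steadier. H2-T23 encodes Qa-1, which presents peptides cut from the leaders of other class I chains to the CD94/NKG2 receptors of natural killer cells. It had 632, 562, 539 and 526 TPM in replicates 1 to 4 (mean 565 ± 47.1 TPM). H2-T22 had 238, 227, 178 and 169 TPM (mean 203 ± 34.4 TPM). H2-M3, which presents peptides that begin with formylmethionine, as those of bacteria and mitochondria do, had 128, 121, 105 and 100 TPM (mean 114 ± 12.9 TPM) and was the lowest of the 10 by mean. In replicates 3 and 4, however, H2-Q5 lay below H2-M3, and in replicate 3 H2-Q6 did too.

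In the order of mean TPM, neighbours were apart in range at 3 of 9 steps. B2m lay above H2-D1, H2-D1 above H2-Q4 and H2-T23 above H2-Q6, with no overlap of their 4 libraries. H2-K1 and B2m overlapped, and H2-K1 was the higher in 2 of 4 libraries. H2-Q4 exceeded H2-Q7 in 4 of 4 libraries though their ranges overlapped (lowest H2-Q4 value 646 TPM, highest H2-Q7 value 792 TPM). H2-T22 exceeded H2-Q5 in 4 of 4 libraries with ranges that overlapped. H2-Q7 against H2-T23, H2-Q6 against H2-T22 and H2-Q5 against H2-M3 each held their order in 2 of 4 libraries. The order depends on the length used: with the length of the longest coding transcript in place of all exons, H2-Q7 averaged 1649 TPM and H2-Q4 1149 TPM, so H2-Q7 came before H2-Q4, and H2-K1 averaged 8534 TPM. The exons counted for H2-Q7 sum to 4265 bases, against 1497 in that transcript.

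Within the summed heavy chain transcripts, H2-K1 and H2-D1 made up most. Their joint share of the sum of 9 heavy chain genes was 74.0%, 74.0%, 79.6% and 79.7% in replicates 1 to 4, on the TPM scale. The 4 Q genes held 18.5%, 18.6%, 11.99% and 12.7%. H2-T22, H2-T23 and H2-M3 together held 7.52%, 7.39%, 8.44% and 7.61%. The Q gene share was thus higher in replicates 1 and 2 than in replicates 3 and 4, and within it H2-Q6 held 3.66%, 3.70%, 0.991% and 1.39% of the whole sum. The sum itself was 13268, 12311, 9749 and 10466 TPM.

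**Figure D2:**
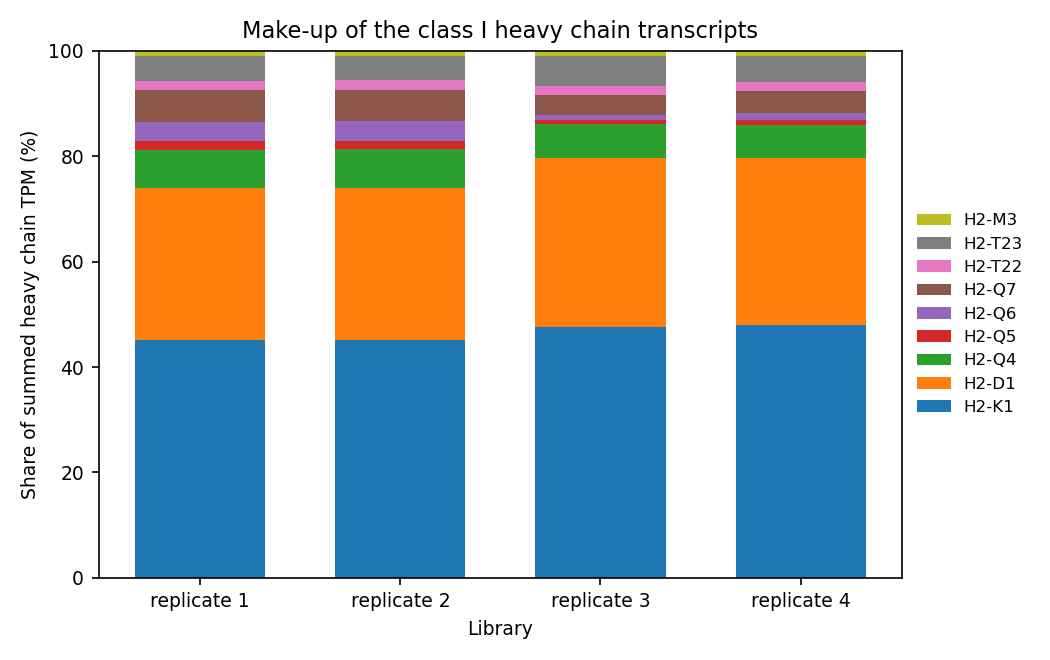
Share of the summed TPM of 9 heavy chain genes (y axis, percent) held by each gene in each library (x axis), stacked to 100%. H2-K1 holds 45.1% to 47.9% in each library, and the bands of H2-Q5, H2-Q6 and H2-Q7 are thinner in replicates 3 and 4 than in replicates 1 and 2.

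Ratios taken within a library do not depend on how libraries are scaled. The log2 ratio of H2-K1 to H2-D1 was 0.64, 0.64, 0.57 and 0.59 in replicates 1 to 4, a mean of 0.61 ± 0.034 (SD, n = 4), or 1.53-fold, on the log2(TPM + 0.1) scale. It was positive in 4 of 4 libraries, and its spread was small beside its size. The log2 ratio of the heavy chain sum to B2m was 1.395, 1.09, 1.03 and 1.10, a mean of 1.16 ± 0.163, or 2.23-fold, with replicate 1 above the others. With the length of the longest coding transcript the means became 1.01 for H2-K1 over H2-D1 and 1.78 for the heavy chain sum over B2m, so the direction held and the size did not.

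The spread of each gene between libraries was set against all 12554 genes that passed the filter on low counts, all 10 class I genes among them. In edgeR's intercept-only fit, with Benjamini-Hochberg adjustment over all of these genes, 142 genes varied beyond the trended dispersion at an adjusted p under 0.05, which is 1.13% of those tested. Of the 10 class I genes, 3 were called. H2-Q6 had an edgeR adjusted p of 3.3e-67 with a log2 range of 2.32, H2-Q5 4.9e-36 with 1.59 and H2-Q7 9.0e-10 with 1.13, on TMM-scaled CPM, which are counts scaled to library size without length. H2-Q4 had a log2 range of 0.56 and an edgeR adjusted p of 0.081, and H2-T22 0.45 and 0.23. The 5 other genes had log2 ranges of 0.23 to 0.35 and edgeR adjusted p-values of 1.00, against a median range of 0.20 over 9276 genes with a mean of at least 5 CPM. Among those 9276 genes, all of which had also passed the filter on low counts, the ranges of H2-Q6, H2-Q5 and H2-Q7 ranked 5th, 15th and 26th. Y-linked genes such as Ddx3y did not pass that filter and were not ranked. Size factors and fitted dispersions from DESeq2 also gave a Pearson statistic, computed here and compared with a chi-square distribution. This statistic, termed DESeq2 below, called the same 3 genes. It also called H2-Q4 (DESeq2 adjusted p = 1.9e-05) and H2-T22 (DESeq2 adjusted p = 0.025). How the loss of shared reads bears on the spread was not tested.

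**Figure D3:**
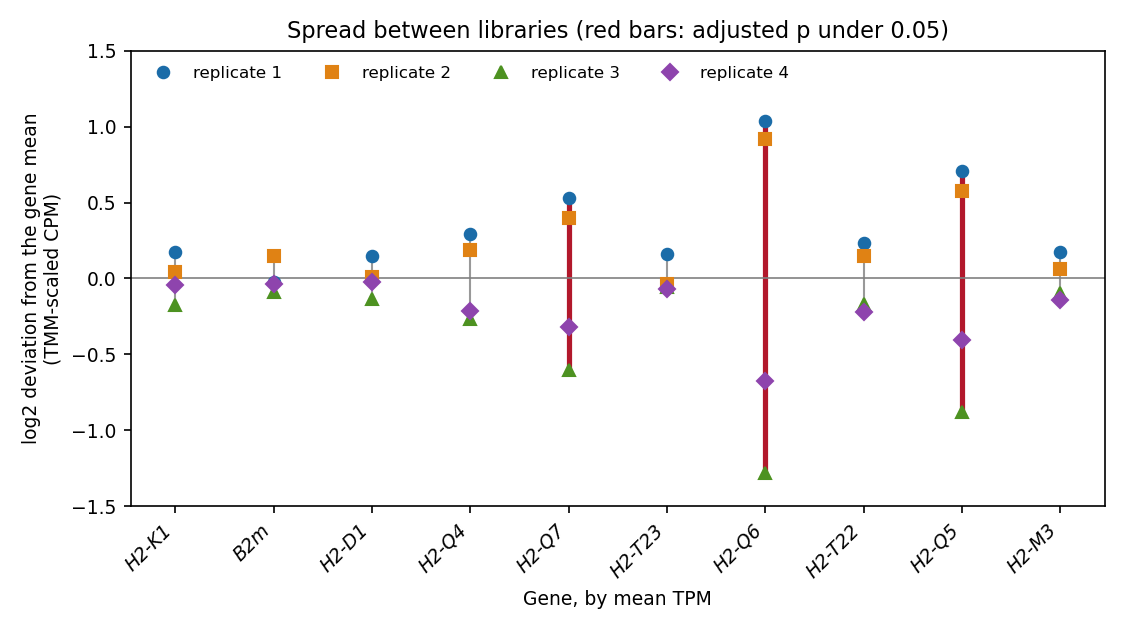
Log2 deviation of each library from the gene's mean over the 4 libraries (y axis, TMM-scaled CPM) for the 10 genes (x axis), with a bar over the range, thick and red for the 3 genes called by edgeR. H2-Q6 runs from -1.28 in replicate 3 to 1.04 in replicate 1, while the bars of H2-T23 and B2m span 0.23.

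Replicates 1 and 2 both lay above replicates 3 and 4 in 10 of the 10 genes, an order picked out after the values were seen. Of the 12554 genes tested, 2206 had this order, which is 17.6%. The order held in 10 of 10 under TMM scaling, plain CPM, TPM and DESeq2 size factors, with 16.8% to 25.0% of all genes tested. Counts of this order in the gene lists below are on TMM-scaled CPM alone. Not repeated below are 1 of 5 class I-like genes tested, 2 of 4 interferon receptors and 0 of 4 receptors that bind class I molecules. For B2m and H2-T23 the gap was slight. The log2 deviation of B2m was -0.022 in replicate 1 and -0.035 in replicate 4, and that of H2-T23 was -0.035 in replicate 2 and -0.055 in replicate 3. Library totals were 25573253, 62090744, 23000465 and 61943411 counts in replicates 1 to 4, and the part of depth was not tested. Transcripts of the sex chromosomes had the same grouping of libraries. Xist, which silences an X chromosome in female cells, had 141, 148, 0.460 and 0.271 TPM in replicates 1 to 4, and the Y-linked gene Ddx3y had 0.238, 0.0988, 75.2 and 76.1 TPM. The Y-linked genes Kdm5d, Eif2s3y and Uty had at most 0.265 TPM in replicates 1 and 2 and at least 9.78 TPM in replicates 3 and 4. Replicates 1 and 2 thus had the pattern of female cells and replicates 3 and 4 that of male cells, though 1 donor record is listed. This split of libraries is the same as that in the class I genes. Its part in the class I levels therefore cannot be told apart here and was not tested.

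B cell markers also differed between libraries, and 5 of 5 were called variable by edgeR. Their summed level was 36.6, 23.5, 26.9 and 10.9 TPM in replicates 1 to 4, and no marker of the 5 was at 0 in any library. The sum was highest in replicate 1 and lowest in replicate 4. The part of B cell RNA in the class I levels, those of the Q genes included, was not tested. Il2ra was the 1 regulatory T cell marker called, with 6.22, 3.63, 9.13 and 3.11 TPM, an order unlike that of the Q genes.

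Along the H2 region, 9 of the 115 genes tested were called variable by edgeR. Between the ends of H2-K1 and H2-M3 lie 3.28 Mb with 299 genes, of which 115 were tested. Besides H2-Q5, H2-Q6 and H2-Q7, 6 of 106 other genes were called by edgeR. They were Hspa1a and Hspa1b, heat shock chaperones, the class II genes H2-Aa, H2-Ab1 and H2-Eb1, and the collagen gene Col11a2. Hspa1b had 45.04, 37.0, 5.08 and 45.6 TPM in replicates 1 to 4, low in replicate 3 alone. Between H2-D1 and H2-T23, the stretch that holds the 4 Q genes described here, 24 other genes were tested and 0 were called by edgeR, with 1 at an unadjusted p under 0.05 and 0 called by DESeq2. H2-Q4 lies 8.84 kb before H2-Q5, which lies 27.0 kb before H2-Q6, and 9.10 kb separate H2-Q6 and H2-Q7, so the 3 called genes lie side by side among the Q genes described here.

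**Figure D4:**
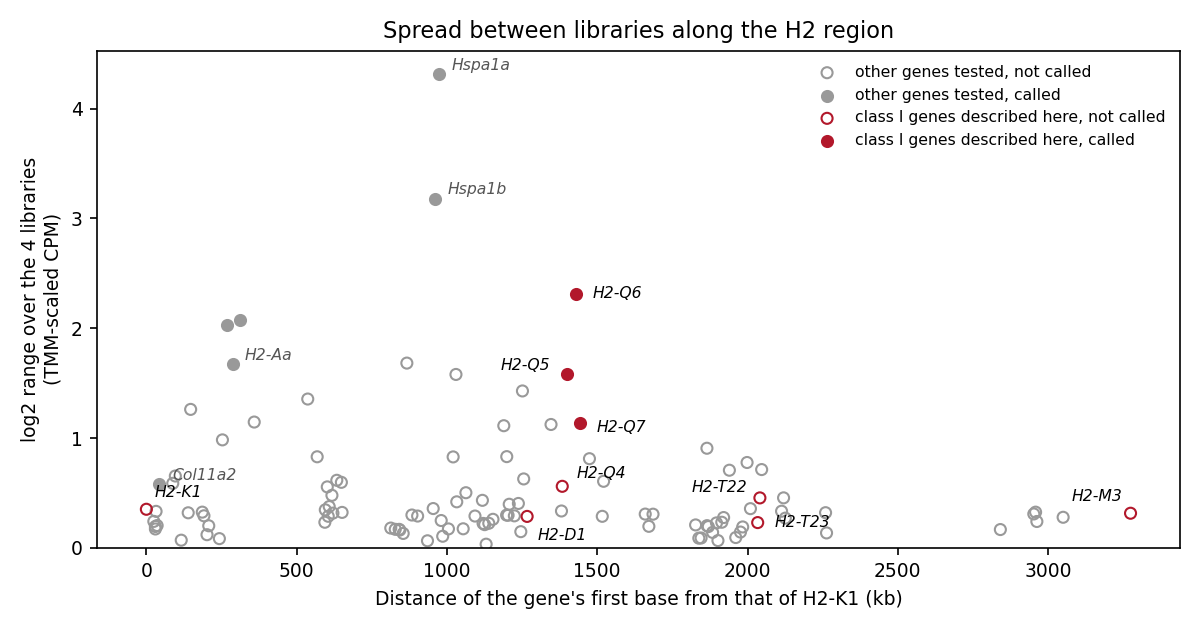
Log2 range over the 4 libraries (y axis, TMM-scaled CPM) of the 115 tested genes from H2-K1 to H2-M3, by distance of their first base from that of H2-K1 (x axis, kb), with filled points for genes called by edgeR. H2-Q5, H2-Q6 and H2-Q7 rise to 1.13 to 2.32, beside H2-Q4 at 0.56 and H2-D1 at 0.29.

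Genes whose pattern over the 4 libraries was nearest to that of H2-Q6 were looked up after its values were seen. The measure was the smallest largest gap between log2 deviations, among the 9276 genes ranked by range above, which leave out Y-linked genes such as Ddx3y. H2-Q5 was the nearest, with a largest gap of 0.40. Ppic, a peptidyl-prolyl isomerase, followed at 0.50 with 22.1, 20.5, 8.04 and 10.46 TPM in replicates 1 to 4, then H2-Q7 at 0.67. Gbp11 came next at 0.71, with 8.18, 9.47, 4.29 and 5.35 TPM, and Iigp1 at 0.73, with 16.8, 19.4, 8.02 and 7.44 TPM. Gbp11 and Iigp1 belong to families of interferon-inducible GTPases. Iigp1 was called variable (edgeR adjusted p = 3.4e-09) and Gbp11 was not (edgeR adjusted p = 0.11). By the level itself, the protein-coding genes most like H2-K1 over the 4 libraries, by the largest log2 difference in TPM + 0.1, were B2m (0.25), mt-Cytb (0.43) and Rpl4 (0.46). For H2-D1 they included Coro1a (0.27) and Tpt1 (0.29), and for B2m they were H2-K1 (0.25), Rpl4 (0.27) and Tmsb4x (0.29).

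The other class I heavy chains of the region were mostly at or near 0. Of 20 with a row, 5 reached 1 TPM in all 4 libraries and 8 had no count in any (H2-M1, H2-M9, H2-M10.1, H2-M10.2, H2-M10.3, H2-M10.4, H2-M10.5 and H2-M11). A count of 0 allows up to 0.282 to 0.447 TPM in these 8 genes, at 3 counts in a library and for counting error only. Their median was 0.0151 TPM, against 572 TPM for the 10 genes described here and 2.46 TPM over all 22113 genes with a count, of which 52.8% reached 1 TPM in all libraries. The highest were H2-K2 (430 ± 52.5 TPM), H2-T24 (128 ± 14.2 TPM) and H2-T10 (93.5 ± 14.4 TPM). Of 6 tested, 0 were called variable by edgeR, with 3 at an unadjusted p under 0.05 and 0 called by DESeq2, and 2 had the order of replicates 1 and 2 above 3 and 4.

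The highest class I-like genes coded elsewhere had lower means than H2-K2, H2-T24 and H2-T10. The median of their list was 0.176 TPM, against 0.0151 TPM for the other heavy chains of the region. Of 12, 5 reached 1 TPM in all libraries, led by Cd1d1, which presents lipids (60.4 ± 4.82 TPM), Fcgrt, the neonatal Fc receptor (14.5 ± 2.05 TPM), and Mr1, which presents vitamin B metabolites (8.61 ± 0.587 TPM). Azgp1, Raet1e and H60c had no count, which allows up to 0.160 to 0.279 TPM on the same terms. None of the 5 tested was called by edgeR or DESeq2, and 0 had an unadjusted edgeR p under 0.05.

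The machinery that fills class I molecules with peptide was present throughout. Of 13 genes for peptide supply and loading, 13 reached 1 TPM in all libraries, with a median of 309 TPM. The highest were Tapbp, which encodes tapasin, the bridge between class I and the peptide transporter (455 ± 42.6 TPM), the chaperone Calr (409 ± 42.2 TPM) and Psmb8, an immunoproteasome subunit (380 ± 14.9 TPM). By edgeR 0 of 13 were called, with 1 at an unadjusted p under 0.05 and 0 called by DESeq2, and 5 of 13 had replicates 1 and 2 above replicates 3 and 4.

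All 17 listed regulators of class I transcription reached 1 TPM in all libraries, with a median of 57.2 TPM. The highest were Irf1, an interferon-induced activator (236 ± 15.9 TPM), Rela, an NF-kappaB subunit (229 ± 7.13 TPM), and Nlrc5, the class I transactivator. Nlrc5 had 248, 248, 173 and 177 TPM in replicates 1 to 4, so that replicates 1 and 2 lay above the others. Its log2 range was 0.50, with an edgeR adjusted p of 0.12. By edgeR 0 of 17 were called, with 4 at an unadjusted p under 0.05, while DESeq2 called 2, Nlrc5 among them. The order of replicates 1 and 2 above 3 and 4 was found in 5 of 17.

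Interferon receptors were present, while their ligands were at or near 0. The 4 receptor genes reached 1 TPM in all libraries, led by Ifngr1 (139 ± 22.7 TPM), Ifnar1 (104 ± 8.51 TPM) and Ifngr2 (75.4 ± 1.03 TPM), with 0 called by edgeR, 1 at an unadjusted p under 0.05 and 0 called by DESeq2. Of the 5 ligand genes, Ifnb1, Ifna1, Ifna2 and Ifna4 had no count in any library, which allows levels of up to 0.436 to 0.801 TPM at 3 counts in a library, for counting error only. Ifng had 0.213, 0, 0 and 0.129 TPM in replicates 1 to 4.

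**Figure D5:**
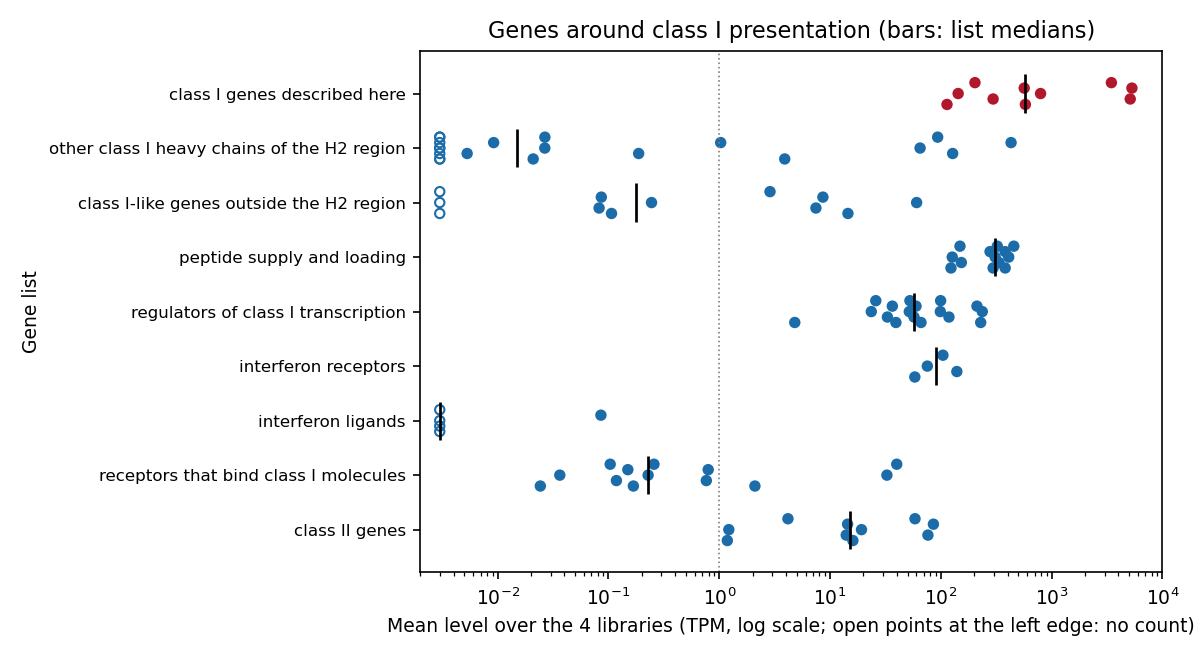
Mean TPM over the 4 libraries (x axis, log scale) of each gene in 9 lists (rows), with a bar at each list's median, a dotted line at 1 TPM and open points at the left edge for genes with no count. The 10 class I genes described here lie between 114 and 5298 TPM, and 8 of the 20 other class I heavy chains have no count.

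Receptors that bind class I molecules were mostly near 0. Of 13, 3 reached 1 TPM in all libraries, namely Cd8b1 (40.0 ± 2.55 TPM), Klrd1, which encodes the CD94 partner of the receptors for Qa-1 (32.6 ± 5.52 TPM), and Cd160 (2.10 ± 0.380 TPM). Cd8a, the other chain of the CD8 coreceptor, had 0.794 ± 0.288 TPM. None of the 4 tested was called by edgeR or DESeq2, and 0 had an unadjusted edgeR p under 0.05.

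Class II genes, which present peptides to CD4 T cells, each had a lower mean TPM over the 4 libraries than any of the 10 class I genes described here. Their summed level was 389, 282, 281 and 211 TPM in replicates 1 to 4. Of 10, 8 reached 1 TPM in all libraries, with a median of 15.2 TPM. The highest were H2-Ob, a modulator of peptide loading (85.6 ± 1.43 TPM), the invariant chain Cd74 and H2-DMa (58.4 ± 6.54 TPM). Cd74 had 131, 66.6, 73.3 and 34.5 TPM in replicates 1 to 4, highest in replicate 1 and lowest in replicate 4, as the summed B cell markers were. By edgeR 4 of 9 were called (Cd74, H2-Aa, H2-Ab1 and H2-Eb1). On TMM-scaled CPM, 2 of 9 had replicates 1 and 2 above replicates 3 and 4.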

How the data were processed

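Total RNA of 4 libraries with 1 label was measured. The molecule is labelled total RNA, but a cited protocol bears poly(A) RNA in its title. The deposited files hold whole-number counts of fragments for each gene. Per the file headers, counting was done with featureCounts 1.4.6-p4 over GENCODE M13 exons from paired, reverse-stranded reads, and the aligned reads were named for STAR. The build mm10 is given in the labels. Fragments with several alignments or over several genes were not counted, so genes with shared sequence lose reads. Each deposited count file also holds the exon length of each gene, a score in bases, and TPM was computed here from counts and lengths.

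Names came from GENCODE M21, matched without version for 50376 of 50600 genes (99.6%). Of 146 list symbols 3 matched nothing (H2-Q8, H2-Q9 and H2-T9). The class I genes and all lists were chosen with earlier results of these data known. Named genes are the 10 class I genes, the 3 highest of each list and those without a count, all regulatory T cell markers, and the 3 protein-coding genes nearest in level to H2-K1, H2-D1 and B2m, and others were named after their values were seen. A few genes within these rules are left unnamed here.

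Spread between libraries was tested in edgeR 4.0.16 under R 4.3.3. After filterByExpr and TMM scaling, a model with an intercept alone was fitted, and each gene's deviance at its trended dispersion was compared with a chi-square distribution on 3 degrees of freedom. The adjustment was over 12554 genes at a threshold of 0.05, and the step was tested on simulated data. Y-linked genes did not pass the filter, which requires a minimum CPM in each of the 4 libraries. As an alternative, size factors and fitted dispersions from DESeq2 1.42.0 gave a Pearson statistic for each gene. It was compared with a chi-square distribution on 3 degrees of freedom, with adjustment over 22113 genes with a count. Word sharing used 50 bases at each position of M21 transcripts, on either strand. Python 3.11.15, numpy 2.4.6, pandas 2.3.3, scipy 1.17.1 and matplotlib 3.10.9 were used. Poisson intervals are exact at 95% and cover counting error only. Depth ran from 23000465 to 62090744 counts per library.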

Additional observations from a re-analysis of the deposited data

How the results depend on the processing

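The same 3 genes, H2-Q5, H2-Q6 and H2-Q7, were called variable in edgeR with TMM and with DESeq2 size factors, without a filter on low counts, with a common dispersion, in DESeq2 and without each replicate. DESeq2 called 5 of the 10 genes, adding H2-Q4 and H2-T22, and a common dispersion called 4, adding H2-Q4 (edgeR adjusted p = 0.047). Leaving out each replicate gave 3 calls each time. Over all genes, calls numbered 142 in edgeR, 352 with a common dispersion, 88 of 22113 without a filter, 99 of 22113 in DESeq2 and 60 to 85 without a replicate. The cause of these differences was not tested.

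The log2 ratio of H2-K1 to H2-D1 (0.61) was 0.56 with exon length free of shared 50-base words and 1.01 with the longest coding transcript, an alternative chosen after seeing the data. The ratio of the heavy chain sum to B2m (1.16) was 1.42, 1.78 and, on counts without length, 2.79, since B2m is the shortest of the 10 genes. Without each replicate the ratios ran from 0.60 to 0.63 and from 1.08 to 1.20. A pseudocount of 1 TPM, small beside these levels, moved neither. All heavy chains described here exceed 1 TPM in all libraries, so a filter at that level could not move either ratio. Scaling of libraries, added after seeing the data, left 10 of 10 genes in the order of replicates 1 and 2 above 3 and 4. Words of 36 or 100 bases moved the shared part of each gene but B2m. Ranks by CPM differed from ranks by TPM, such as B2m from rank 12 to rank 58. Detection at 0.5 or 5 TPM changed some list counts slightly, such as class II genes from 8 to 10 at 0.5 TPM. No paired analysis was possible because there is 1 group. Reads lost to shared sequence and the choice of length both limit the levels.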
